A study of Mus musculus with 12 samples.

Results

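The Notch pathway genes of this dataset are 10 of the 55376 genes in the count table, chosen by name: the receptors Notch1, Notch2 and Notch3, the ligands Dll1, Dll4, Jag1 and Jag2, the nuclear effector Rbpj, and the target genes Hes1 and Hey1. RNA was sequenced from proximal colon of 12 mice aged 12 weeks, 6 control mice (EPR fl/fl) and 6 conditional knockout mice (EPR cKO). EPR is a long non-coding RNA of epithelial cells, listed in the count table as Smim31. In both groups loxP sites flank the promoter and exon 1 of EPR on both alleles, and EPR cKO mice also carried CDX2P-NLS Cre, a recombinase transgene under a CDX2 promoter that is active in large intestinal and distal ileal epithelium. The labels mark the controls as wild type and do not say that they carry the transgene, so the recombinase itself and the loss of EPR cannot be told apart. Each library is the whole wall of a colon fragment, with muscle, vessels and stroma as well as epithelium, so fewer cells of a type and less RNA per cell cannot be told apart in any value below.

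Notch receptors are membrane proteins that are cut when a Delta or Jagged ligand on a neighbouring cell pulls on them. The released intracellular part enters the nucleus, joins the DNA-binding protein RBPJ and switches on repressors of the Hes and Hey families. In intestinal crypts this signal holds progenitors on the absorptive path: HES1 represses Atoh1, the transcription factor that starts the secretory lineages, whereas secretory progenitors display Delta ligands to their neighbours.

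Library totals ran from 13093904 to 33211041 counts, of which 3284 to 7892 fell on the 10 Notch genes. Levels are given as CPM (counts scaled to the same library total) after adjustment by the trimmed mean of M-values. EPR itself had 297 to 1474 counts in the controls and 0 to 10 in EPR cKO, a log2 fold change of −8.09 (edgeR adjusted p = 1.62e-06, SE 0.47). The library EPR cKO 1 stood apart in its tissue makeup. A composition score, the mean log2 CPM of 12 epithelial genes minus that of 10 smooth muscle genes, was −0.09 in EPR cKO 1, 0.84 to 1.66 in the 6 EPR fl/fl libraries, and 1.86 to 3.44 in the other 5 EPR cKO libraries. Fold changes that rest on that library are therefore given with and without it. Relations with the composition score are given without it only where EPR cKO 5 was left out too. The fit with the score as a covariate and the correlations between genes include it throughout.

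All 10 Notch genes were expressed at 1 CPM or more in at least 4 libraries, the minimum for testing that 15952 genes met. Hey1 reached it through the controls, since 5 of these and 2 EPR cKO libraries had 1 CPM or more. None of the 10 was called different between the genotypes by the edgeR quasi-likelihood test at an adjusted p under 0.05, against 2.46% of all tested genes. At an unadjusted p under 0.05 there were 2 of 10, Jag1 and Hes1, against 18.3% of all tested genes. In none of the 10 were the 6 libraries of each genotype free of overlap, against 2.47% of all tested genes. At the stricter thresholds of the study, which also set a minimum fold change, 0.169% of all tested genes and none of the 10 were called. The median log2 fold change (EPR cKO over EPR fl/fl) of the 10 was −0.17 and that of all tested genes 0.02, with 3 of the 10 and 8430 of the 15952 above 0. In data simulated from these libraries, the same fit recovered 10% of genes changed by 0.5 on the log2 scale and 69.5% of those changed by 1.

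**Figure D1:**
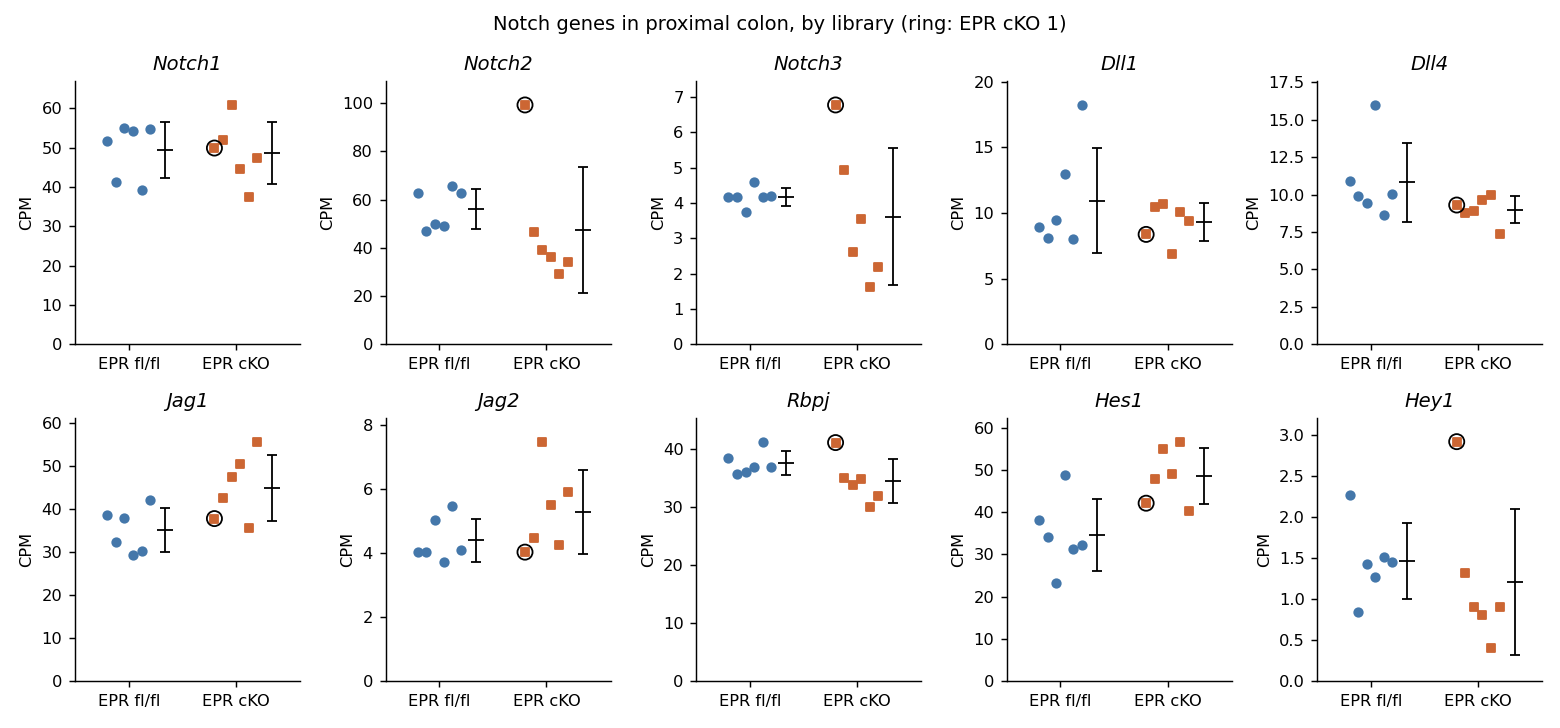
CPM of the 10 Notch genes in each library (circles EPR fl/fl, squares EPR cKO, n = 6 each; bars, mean and SD; each axis starts at 0). Both genotypes overlap in every panel, Jag1 and Hes1 lie mostly higher in EPR cKO, and the ringed library EPR cKO 1 holds the highest Notch2 (99.2 CPM), Notch3 (6.77 CPM) and Hey1 (2.92 CPM).

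Without EPR cKO 1, the edgeR fit called 3 of the 10, Notch2 lower and Jag1 and Hes1 higher, while the share of all tested genes called rose to 21.8%. Given all 12 libraries with estimated quality weights, limma-voom called the same 3 genes, against 20.5% of all tested genes. With 10 genes, 3 calls lie close to those backgrounds.

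Hes1, the repressor that Notch signalling induces in crypt progenitors (mm10, chr16:30065340-30067796, plus strand), had the largest absolute log2 fold change of the 10 in the edgeR fit with all libraries. Its level ran from 23.2 CPM (median 33.2) to 48.8 CPM in EPR fl/fl and from 40.4 CPM (median 48.6) to 56.8 CPM in EPR cKO. All EPR cKO libraries lay above 5 of the 6 controls, and 3 lay above all of them; the control EPR fl/fl 4, at 48.8 CPM, lay among the EPR cKO libraries. The means were 34.7 ± 8.51 and 48.6 ± 6.62 CPM (SD, n = 6 each), a log2 fold change of 0.49 (SE 0.15, 95% interval 0.16 to 0.82, edgeR adjusted p = 0.116), or 1.40-fold. When EPR cKO 1 was left out, it was 0.51, with an adjusted p of 0.0346, and Hey1 (−0.75) and Notch2 (−0.62) had larger absolute values. Hes1 stayed above 0 in every setting tried, from 0.39 to 0.61 on the log2 scale.

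Hey1, a related repressor induced by Notch in vessels and muscle (chr3:8663359-8667256, minus strand), was rare, with 13 to 53 counts per library. Its level ran from 0.845 CPM (median 1.44) to 2.27 CPM in EPR fl/fl and from 0.405 CPM (median 0.903) to 2.92 CPM in EPR cKO. The highest EPR cKO value was that of EPR cKO 1, and the other 5 did not exceed 1.31 CPM. This gave a log2 fold change of −0.27 with a wide interval (−1.14 to 0.60, adjusted p = 0.727) and −0.75 without EPR cKO 1 (−1.42 to −0.09, adjusted p = 0.0942). It was −0.08 without EPR cKO 5, the library with the lowest level. Hey1 met the minimum for testing through the controls, where its mean was higher, so its values are a description. Neither target gene passed the test with all libraries. The interval of Hey1 with all libraries spanned both signs, so its sign is not set against that of Hes1.

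**Figure D2:**
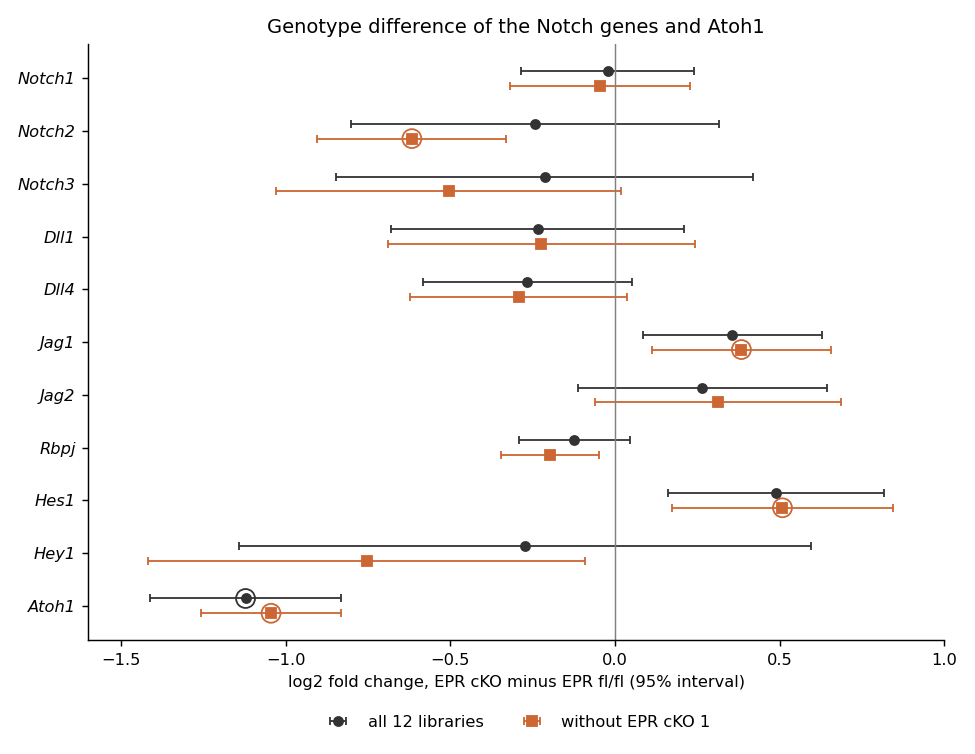
Log2 fold change (EPR cKO over EPR fl/fl) of the 10 Notch genes and Atoh1 with 95% intervals from edgeR, with all 12 libraries (circles) and without EPR cKO 1 (squares); a ring marks an adjusted p under 0.05. With all libraries Atoh1 alone is ringed (−1.12), and without EPR cKO 1 also Notch2 (−0.62), Jag1 (0.38) and Hes1 (0.51).

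Among the ligands, Jag1 (chr2:137081456-137116644, minus strand), the Jagged ligand with the highest level here, ran from 29.2 CPM (median 35.1) to 42.0 CPM in EPR fl/fl and from 35.4 CPM (median 44.9) to 55.6 CPM in EPR cKO. The 4 highest libraries of all 12 were EPR cKO, and EPR cKO 1 (37.7 CPM) and EPR cKO 5 (35.4 CPM) lay among the controls. The means were 35.0 ± 5.18 and 44.8 ± 7.73 CPM, a log2 fold change of 0.36 (SE 0.13, 95% interval 0.08 to 0.63, adjusted p = 0.165). It was 0.38 when EPR cKO 1 was left out, with an adjusted p of 0.0456. Jag2, the second Jagged ligand (chr12:112907819-112929776, minus strand), was lower in level, at 4.38 ± 0.682 CPM in the controls and 5.26 ± 1.31 CPM in EPR cKO, with a log2 fold change of 0.26 (adjusted p = 0.437, SE 0.18) that was 0.14 without EPR cKO 3. Of its 6 EPR cKO libraries, 3 lay above all controls and 3 among them.

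The Delta ligands, which secretory progenitors present in crypts, had log2 fold changes below 0. Dll1 (chr17:15367354-15375976, minus strand) ran from 8.03 CPM (median 9.19) to 18.2 CPM in EPR fl/fl and from 6.88 CPM (median 9.74) to 10.7 CPM in EPR cKO. The medians thus lay the other way round from the means of 10.9 ± 4.01 and 9.30 ± 1.45 CPM, which EPR fl/fl 4 (13.0 CPM) and EPR fl/fl 6 (18.2 CPM) set apart. The log2 fold change was −0.23 (adjusted p = 0.559, SE 0.21), and −0.03 without EPR fl/fl 6. Dll4, a Delta ligand of crypts and also of vessels (chr2:119325784-119335962, plus strand), was at 10.8 ± 2.65 CPM in the controls and 8.997 ± 0.898 CPM in EPR cKO, a log2 fold change of −0.27 (adjusted p = 0.353, SE 0.15). Its highest library was EPR fl/fl 4 (16.0 CPM), without which the log2 fold change was −0.12.

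Of the receptors, Notch1 (chr2:26457903-26503822, minus strand), a main receptor of crypt progenitors, had almost the same level in both genotypes, at 49.4 ± 7.17 CPM in the controls and 48.7 ± 7.82 CPM in EPR cKO. The libraries ran from 39.3 CPM (median 53.0) to 55.0 CPM and from 37.4 CPM (median 48.5) to 60.8 CPM, so the EPR cKO range enclosed that of the controls. The log2 fold change was −0.02 (adjusted p = 0.934, SE 0.12), its 95% interval reached from −0.29 to 0.24, and its sign turned in some other settings.

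Notch2 (chr3:98013538-98150361, plus strand), the second receptor of crypt progenitors and one also present in stroma, ran from 46.9 CPM (median 56.2) to 65.7 CPM in EPR fl/fl. In EPR cKO 1 to 6 it was at 99.2, 46.6, 39.1, 36.1, 29.0 and 34.2 CPM. So 5 of the EPR cKO libraries lay below all controls, and EPR cKO 1 lay above all of them. With all libraries the log2 fold change was −0.24 (SE 0.26, 95% interval −0.80 to 0.31, adjusted p = 0.628). Without EPR cKO 1 it was −0.62 (SE 0.13, 95% interval −0.90 to −0.33, adjusted p = 0.00818), and without EPR cKO 5 it was −0.14.

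Notch3, a receptor known for its role in vascular smooth muscle and pericytes (chr17:32120820-32166852, minus strand), had a similar layout at a lower level. It ran from 3.74 CPM (median 4.17) to 4.58 CPM in EPR fl/fl, and was at 6.77, 4.92, 2.61, 3.53, 1.62 and 2.18 CPM in EPR cKO 1 to 6. The EPR fl/fl libraries lay close together, and 2 EPR cKO libraries lay above and 4 below all of them. The log2 fold change was −0.21 (adjusted p = 0.709, SE 0.29), −0.51 without EPR cKO 1 (adjusted p = 0.149), and −0.06 without EPR cKO 5.

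Rbpj, the DNA-binding partner of the cut receptors (chr5:53555834-53657362, plus strand), had the smallest coefficient of variation of the 10 among the controls (5.52%), at 37.5 ± 2.07 CPM, against 34.4 ± 3.78 CPM in EPR cKO. The controls ran from 35.6 CPM (median 36.9) to 41.2 CPM, and the EPR cKO libraries from 29.96 CPM (median 34.3) to 41.1 CPM. Again 5 EPR cKO libraries lay below all controls, and EPR cKO 1 lay among them. The log2 fold change was −0.12 (SE 0.08, 95% interval −0.29 to 0.04, adjusted p = 0.413), and −0.20 (−0.35 to −0.05, adjusted p = 0.0577) without EPR cKO 1.

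Notch2, Notch3, Rbpj and Hey1 had the strongest relations with tissue composition over the 6 EPR cKO libraries. Within the 6 EPR cKO libraries, the level of Notch2 on the log2 scale had a Pearson r of −0.99 and a Spearman rho of −1.0 with the composition score (exact permutation p = 0.00278 for each, 0.0556 after adjustment over 20 relations). For Rbpj r was −0.94 and rho −0.94 (exact permutation p = 0.0139 and 0.0167, adjusted 0.0833 and 0.111). For Hey1 r was −0.94 and rho −0.83 (exact permutation p = 0.0111 and 0.0583, adjusted 0.0833 and 0.233).

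Notch3 had an r of −0.89 and a rho of −0.94 (exact permutation p = 0.0167 for each, adjusted 0.0833 and 0.111). Without the 2 libraries farthest from the median score, r was −0.96 for Notch2, −0.73 for Notch3, −0.68 for Rbpj and −0.76 for Hey1, over 4 libraries. None of these relations passed 0.05 after adjustment. Among the 6 EPR fl/fl libraries, where the score ranged less widely, r was −0.58 for Notch2, 0.32 for Notch3, −0.47 for Rbpj and −0.64 for Hey1. The other 6 Notch genes had r between −0.45 and 0.40 within EPR cKO. Over the 4 libraries other than EPR cKO 1 and EPR cKO 5, r was 0.99 for Jag1, −0.62 for Hes1, −0.62 for Notch1, −0.55 for Dll1, −0.46 for Dll4 and 0.29 for Jag2.

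All 10 smooth muscle markers were detected and tested. Their mean log2 CPM ran from 7.92 to 8.67 in EPR fl/fl and from 6.46 to 9.46 in EPR cKO, where EPR cKO 1 was the highest. All 9 endothelial markers were tested, at 2.64 to 3.01 in EPR fl/fl and 1.48 to 3.29 in EPR cKO, and so were all 6 pericyte markers, at 5.27 to 5.95 and 3.96 to 6.50, again with EPR cKO 1 the highest. The 5 adipocyte markers were at 5.34 to 7.09 in EPR fl/fl and 2.28 to 6.31 in EPR cKO. The 6 fibroblast markers were at 6.80 to 7.52 and 5.55 to 8.32. Markers of enteric neurons and glia were at 1.66 to 2.70 and 0.208 to 3.46. In each of these lists EPR cKO 1 was the highest EPR cKO library. With the composition score as a covariate in the edgeR fit, the log2 fold changes were 0.19 for Notch2, 0.21 for Notch3, 0.0033 for Rbpj and 0.31 for Hey1, none with an adjusted p under 0.05, whereas Hes1 stayed at 0.39 and Jag1 at 0.28 (adjusted p = 0.320 and 0.430). The composition score was itself 1.09 ± 0.31 in the controls and 2.26 ± 1.29 in EPR cKO, so composition and genotype cannot be told apart fully here.

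**Figure D3:**
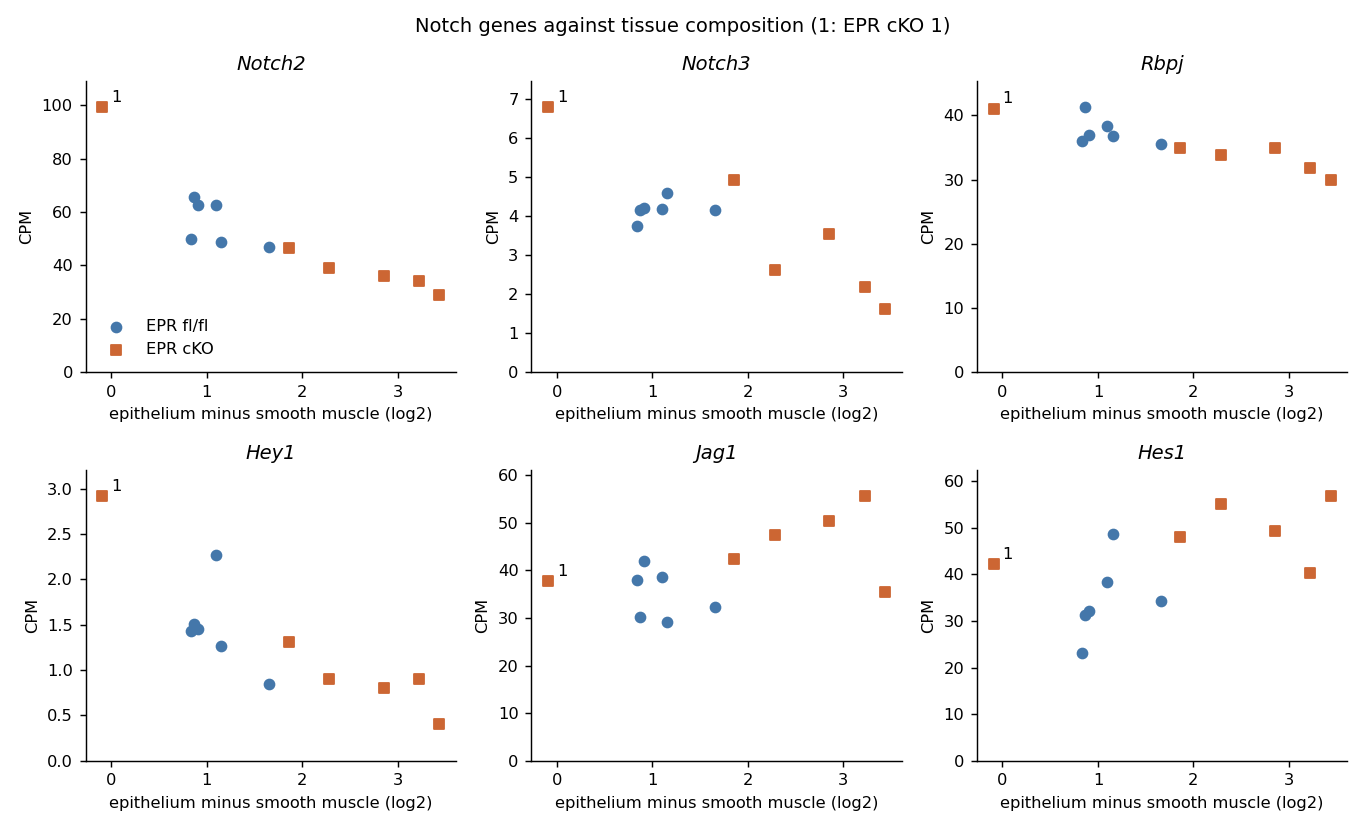
CPM of 6 Notch genes in each library against the composition score (mean log2 CPM of 12 epithelial genes minus that of 10 smooth muscle genes; circles EPR fl/fl, squares EPR cKO; vertical axes start at 0). Notch2, Notch3, Rbpj and Hey1 decline along the score in EPR cKO, from EPR cKO 1 at −0.09 to EPR cKO 5 at 3.44, whereas Jag1 (r = 0.38) and Hes1 (r = 0.40) show no such decline over all 6.

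The levels of the 10 genes relative to each other were compared per kilobase of summed exon length (RPKM). In EPR fl/fl, Hes1 was the highest at 23.6 ± 5.79 RPKM, above 84.7% of tested genes. Jag1 (6.24 ± 0.923), Rbpj (5.40 ± 0.298), Notch2 (5.34 ± 0.803) and Notch1 (5.20 ± 0.756) followed, and no neighbours among them held their order in all 6 libraries. Dll1 (3.06 ± 1.12) and Dll4 (2.89 ± 0.706) came next and did not differ from each other beyond their spread.

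Jag2 (0.859 ± 0.134), Hey1 (0.603 ± 0.191) and Notch3 (0.520 ± 0.0333) were the lowest. Neither Jag2 and Hey1 nor Hey1 and Notch3 held their order in all 6 libraries, but Jag2 exceeded Notch3 in 6 of 6. The steps from Hes1 to Jag1, from Notch1 to Dll1 and from Dll4 to Jag2 held in 6 of 6 libraries. In EPR cKO the order was the same except that Notch1 came before Rbpj and Notch2, and the step from Jag1, at 7.99 ± 1.38 RPKM, to Notch1, at 5.13 ± 0.824, held in 6 of 6 libraries.

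Several of these genes share sequence with another annotated gene, which limits their counts, since the sources used here do not state whether strand was used in counting. Exons of antisense genes cover 17.4% of the exon bases of Dll1, 14.5% of Notch1, 6.09% of Notch3 and 5.71% of Dll4. A gene model on the same strand, Gm42820, covers 5.15% of those of Notch2. For Rbpj, 10.6% of the 50-base stretches of its transcripts recur in other transcripts, mostly in the pseudogene Rbpj-ps3. No such overlap was found for Jag1, Jag2, Hes1, Hey1 or Atoh1.

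The 250 bases upstream of the RefSeq start sites (GRCm38.p6, the build of mm10) of Rbpj, Jag1 and Atoh1 are shown, as the nuclear effector, the ligand gene with the largest difference and the fate gene that fell. Capitals mark TGGGAA, the core of the RBPJ binding motif, on either strand (TTCCCA on the shown strand is the same motif on the other strand).
Rbpj: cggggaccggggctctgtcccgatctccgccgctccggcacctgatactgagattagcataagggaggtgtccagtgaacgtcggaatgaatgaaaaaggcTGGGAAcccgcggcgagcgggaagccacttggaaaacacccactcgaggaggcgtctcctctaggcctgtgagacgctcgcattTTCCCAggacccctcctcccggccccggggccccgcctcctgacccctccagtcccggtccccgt
Jag1: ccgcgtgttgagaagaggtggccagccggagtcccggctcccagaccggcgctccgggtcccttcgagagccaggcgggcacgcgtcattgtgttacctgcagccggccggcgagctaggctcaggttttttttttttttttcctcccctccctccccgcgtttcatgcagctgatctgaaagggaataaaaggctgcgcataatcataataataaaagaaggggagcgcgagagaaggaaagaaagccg
Atoh1: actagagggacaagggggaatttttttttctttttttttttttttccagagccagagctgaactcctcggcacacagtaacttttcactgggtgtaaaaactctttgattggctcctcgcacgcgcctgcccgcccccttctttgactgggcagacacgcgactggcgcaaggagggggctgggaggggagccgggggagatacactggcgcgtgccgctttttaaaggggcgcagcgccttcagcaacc
The windows lie at chr5:53590096-53590345 (plus strand), chr2:137116521-137116770 (minus strand) and chr6:64728875-64729124 (plus strand). The Rbpj window lies inside the gene as counted, upstream of an internal start, and the Jag1 window overlaps the counted gene, which ends at 137116644. RefSeq windows, 10 in all, were found for 8 of the 10 Notch genes. The counts of genes below thus stand beside shares of single windows, which are an unlike measure. TGGGAA occurred in that of 1 of them, Rbpj, with copies 149 and 65 bases before the start, and in 21.6% of all 32851 upstream windows of the same length. The longer form GTGGGAA occurred in none of the 8, against 5.42% of all windows. The N-box CACNAG (either strand), a motif of Hes repressors, occurred in 4 of the 8, Notch1, Notch2, Notch3 and Dll4, against 36.7% of all windows. The starts of the Notch3 window and of the Dll1 window at chr17:15376933-15377182 were not found in an annotated transcript of their gene. The N-box was not in the windows of Jag1, Rbpj or Atoh1. These are matches of letters within a short window, and binding was not measured.

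Atoh1, the activator of secretory fate (chr6:64729125-64731245, plus strand), was the 1 gene called among the other 45 tested genes of the pathway, against the 2.46% of all tested genes. It ran from 50.1 to 73.7 CPM in EPR fl/fl and from 19.5 to 34.3 CPM in EPR cKO, with no overlap. The means were 64.3 ± 8.97 and 29.5 ± 5.41 CPM, and Atoh1 fell by 1.12 on the log2 scale (adjusted p = 0.000584, SE 0.13). It kept a log2 fold change of −1.04 without EPR cKO 1 (adjusted p = 6.89e-05). All 8 goblet cell markers, genes of secretory cells that form after Atoh1 acts, had log2 fold changes below 0. Of these 8, 5 were called lower and none higher, against 2.46% of all tested genes in either direction (251 of 15952 lower). The list was chosen with earlier results of these data known, and the study had reported reduced goblet cell genes in these mice. The counts of goblet markers are therefore a description and no independent evidence. The other 3 did not pass (adjusted p up to 0.265). Without EPR cKO 1, 7 of the 8 were called lower, against 21.8% of all tested genes in either direction (2273 of 15836 lower). The mean log2 CPM of the goblet markers was 9.95 ± 0.18 in the controls and 8.99 ± 0.14 in EPR cKO. The mean levels of other secretory cell markers did not fall in this way. The 8 enteroendocrine markers were at 3.76 ± 0.32 and 4.08 ± 0.33, with 1 called higher and none lower, against the same 2.46%. Of these, 5 had log2 fold changes above 0 and 3 below. The 6 tuft cell markers were at 2.61 ± 0.31 and 2.64 ± 0.26, with none called, 4 above 0 and 2 below. Without EPR cKO 1, 2 enteroendocrine markers were called higher and 1 tuft marker lower, against 21.8% of all tested genes.

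Hes1 and the Delta ligands were also set against Atoh1 within each library, as a log2 ratio of CPM (with 0.5 CPM added to each term), which depends on the scaling of libraries only through the added 0.5 CPM. The ratio of Hes1 to Atoh1 ran from −1.65 to −0.55 in EPR fl/fl and from 0.35 to 1.09 in EPR cKO, so that Atoh1 exceeded Hes1 in every control and Hes1 exceeded Atoh1 in every EPR cKO library in CPM. The mean ratio rose by 1.63, from −0.91 ± 0.40 to 0.72 ± 0.27, or 3.09-fold (2-sided exact permutation p = 0.00216, the smallest that the assignments of 12 libraries allow, 0.00433 after adjustment over 4 ratios). Atoh1 by itself separated the genotypes, so this p is no independent evidence about Hes1.

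The ratios of Dll4 and Dll1 to Atoh1 were 0.89 and 0.95 higher in EPR cKO. They restate the Atoh1 difference of −1.12, since the ligands' own values, −0.27 and −0.23, lay below 0. The ratio of Dll1 to Dll4, which leaves Atoh1 out, was −0.02 ± 0.43 in the controls and 0.04 ± 0.30 in EPR cKO, a difference of 0.06 (exact permutation p = 0.816). Without EPR cKO 1 the ratio of Hes1 to Atoh1 still differed by 1.55 (exact permutation p = 0.00433, again the smallest possible).

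**Figure D4:**
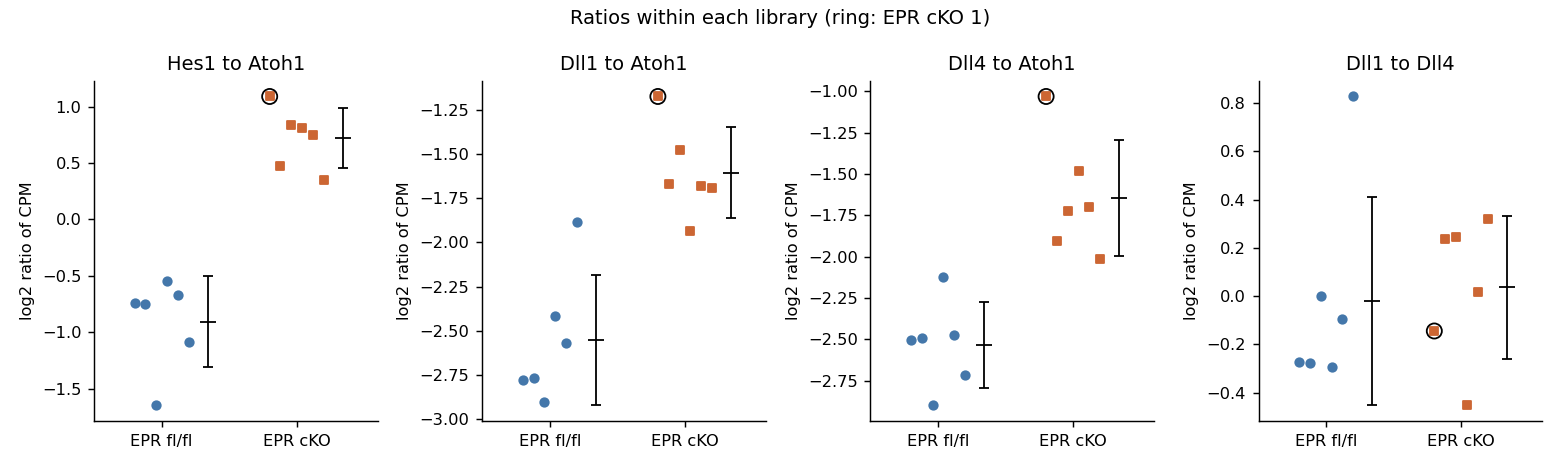
Log2 ratios of CPM within each library for Hes1, Dll1 and Dll4 to Atoh1 and for Dll1 to Dll4 (circles EPR fl/fl, squares EPR cKO, n = 6 each; bars, mean and SD; the ring marks EPR cKO 1; vertical axes differ and do not start at 0). The ratio of Hes1 to Atoh1 lies between −1.65 and −0.55 in EPR fl/fl and between 0.35 and 1.09 in EPR cKO, and the ratio of Dll1 to Dll4 overlaps.

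Neurog3, the activator of enteroendocrine fate and another gene that HES1 represses (chr10:62133090-62134763, plus strand), had a value of opposite sign from Atoh1. It was at 0.499 ± 0.145 CPM in the controls and 1.27 ± 0.576 CPM in EPR cKO, with 5 of 6 EPR cKO libraries above all controls. It reached 1 CPM in 4 EPR cKO libraries and in no control, so it was tested only through the group where it was high, and its values are a description. The log2 fold change was 1.31, 1.45 without EPR cKO 1 and 0.50 with the composition covariate. Its exons overlap an antisense gene, Fam241b, over 17.7% of their bases.

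The rest of the pathway was given by 52 further genes, of which 45 were tested. Their median log2 fold change was −0.03. At an unadjusted p under 0.05 there were 5 with higher values and 5 with lower values, or 10 of 45 against 18.3% of all tested genes. Without EPR cKO 1 the test called 3 higher and 9 lower, against 21.8% of all tested genes. Both sets of counts include Neurog3 (higher) and Aph1c (lower). Each of these met the minimum for testing through the genotype where it was higher, so the counts are a description. Of the paralogs of the 10 genes, Notch4, a receptor of endothelium, was at 4.82 ± 1.29 and 3.77 ± 0.816 CPM (log2 fold change −0.36, adjusted p = 0.346). Hes6 was at −0.14 (adjusted p = 0.541) and Heyl at −0.0048 (adjusted p = 0.995). Dll3, Dlk1, Dlk2, Rbpjl, Hes5, Hes7 and Hey2 were too low to test, with group means of at most 0.972 CPM, that of Hey2 in EPR fl/fl.

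The proteases that cut the receptors, with their subunits, were represented by 10 genes. Of these, Aph1c and Aph1b, subunits of gamma-secretase, had the largest absolute differences, −0.57 and −0.33 on the log2 scale (adjusted p = 0.230 and 0.118). Adam10 (0.20), which makes the cut outside the membrane, and Aph1a (0.33), another gamma-secretase subunit, had values above 0 and were named here after their values were seen. Without EPR cKO 1, Aph1a was called higher at 0.40 and Aph1b and Aph1c lower at −0.38 and −0.77. Aph1c ran from 1.40 to 2.51 CPM in EPR fl/fl and from 0.799 to 1.93 CPM in EPR cKO. It met the minimum for testing through the controls, where it was higher, so its values are a description.

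Of 5 genes that place sugars on the receptors, Mfng, a Fringe enzyme, had a log2 fold change of −0.84 (adjusted p = 0.206, SE 0.33), with EPR cKO 1 at 6.50 CPM and the other 5 EPR cKO libraries at 3.66 CPM or less. Poglut1 was at −0.21 (adjusted p = 0.373). Of 4 ubiquitin ligases that act on the ligands, Neurl1a was at −0.79 (adjusted p = 0.247, SE 0.34), again with EPR cKO 1 (7.10 CPM) above the other 5 EPR cKO libraries, and Mib2 was at 0.09 (adjusted p = 0.695). When EPR cKO 1 was left out, Mfng (−1.16), Neurl1a (−1.20) and Poglut1 (−0.31) were called lower.

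Among 9 inhibitors and turnover genes, Dtx1, a Deltex ligase, was at −0.51 (adjusted p = 0.291) and Dtx2 at −0.26 (adjusted p = 0.352). Numb, an inhibitor of Notch, was at 0.17 with an adjusted p of 0.247, and was named here after its value was seen. Among 12 nuclear cofactors, Maml2, a coactivator that binds the RBPJ complex, was at −0.33 (adjusted p = 0.545) and Kat2a, a histone acetyltransferase, at 0.29 (adjusted p = 0.172). In the fit without EPR cKO 1, Dtx1 (−0.71), Maml2 (−0.72) and Kat2b (−0.21), the last of these named after its value was seen, were called lower and Kat2a (0.32) higher.

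**Figure D5:**
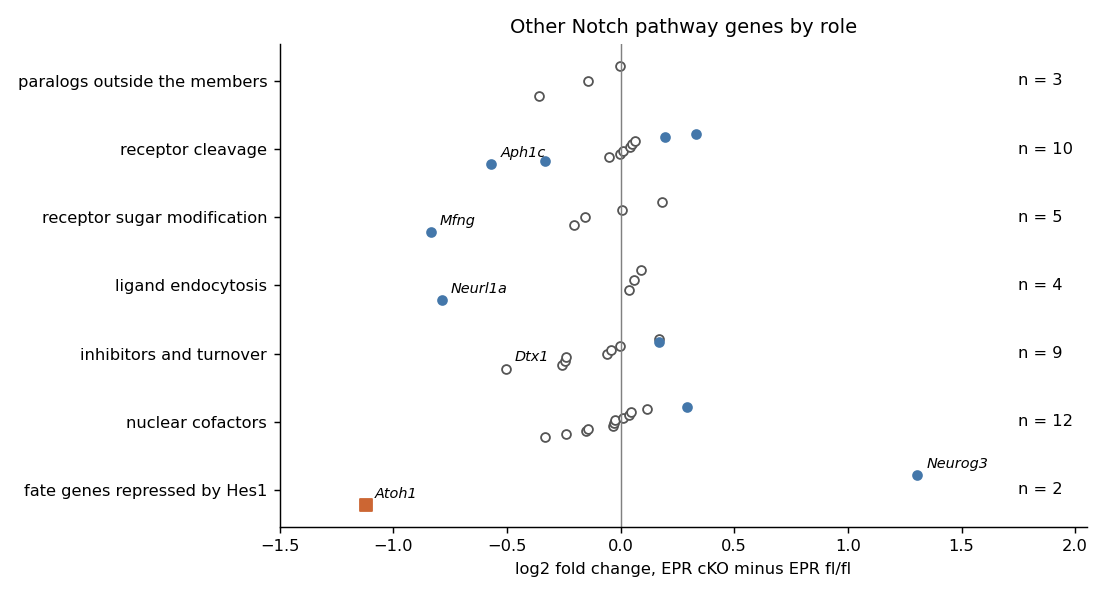
Log2 fold change (EPR cKO over EPR fl/fl, all 12 libraries) of the 45 other tested pathway genes by role, with the number of genes at the right. The orange square is called at an adjusted p under 0.05 (Atoh1, −1.12), blue points have an unadjusted p under 0.05 only, and open points neither; the median is −0.03.

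For each Notch gene, the 2 named genes that varied most like it across the 12 libraries were found by the Pearson r of log2 CPM after removal of each genotype's mean. These values, and those of pairs of Notch genes below, describe libraries that share composition and depth. They include EPR cKO 1 and were not computed without it. The r of the 2 nearest genes is the highest among all named tested genes, so it is raised by that choice. Notch2 was closest to Slc25a4 (r = 0.99) and Tacc1 (0.99), Notch3 to Lyl1 (0.97) and Ednra (0.96), Rbpj to Mmrn1 (0.97) and Ppm1f (0.97), and Hey1 to Ctxn3 (0.97) and Mill2 (0.96). Notch1 was closest to Brd1 (0.90) and Khsrp (0.88), Dll1 to Rbck1 (0.91) and Plekha7 (0.87), and Dll4 to Rsrp1 (0.93) and Snhg20 (0.86).

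Jag1 was closest to Slc35e2 (0.95) and Dock5 (0.87), Jag2 to Tspan14 (0.84) and Tlr4 (0.84), and Hes1 to Tceal9 (0.92) and Sertad3 (0.88). Among the Notch genes themselves, the 6 pairs within Notch2, Notch3, Rbpj and Hey1 had r from 0.81 to 0.92, Dll4 and Hes1 had 0.78, and each of the other pairs had 0.50 or less. Hes1 and Hey1, both targets of the pathway, had −0.28.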

How the data were processed

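Per the labels and the study's methods, RNA of frozen proximal colon was made into Illumina Stranded Total RNA libraries with Ribo-Zero Plus depletion, and the authors trimmed paired-end reads, mapped them with STAR 2.5.3a to mm10 and assigned them to Ensembl genes with featureCounts. The deposited file holds raw counts per gene and library. From these counts, genes with at least 1 CPM in at least 4 of the 12 libraries, the filter of the study, were kept, and the genotypes were compared with edgeR 4.0.16 (TMM scaling, quasi-likelihood F test) in R 4.3.3, with Benjamini-Hochberg adjustment over all 15952 tested genes. SE is the absolute log2 fold change divided by the square root of F. Within-library ratios were tested with exact permutation (scipy 1.17.1). The alternatives were other scalings and filters, DESeq2 1.42.0, limma 3.58.1 (voom, with and without quality weights), a replicate block, a composition covariate, and leaving libraries out. The fit was tested on simulated counts with 200 changed genes. No 2 libraries of a group agreed within sampling noise (smallest chi-square per gene 24.7 over 30 pairs). The Notch genes, pathway and marker lists were chosen with earlier results of these data known. Named genes were the 10 Notch genes, EPR, Atoh1, their paralogs, called pathway genes, the 2 with the largest absolute log2 fold change per role, and the 2 most correlated genes per Notch gene. Upstream windows came from RefSeq.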

Additional observations from a re-analysis of the deposited data

Results flagged for a closer look

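In 5 of 32 sets of 6 libraries, where chance gives about 1.6, the highest library lay far from the other 5. Notch2 in EPR cKO 1 was at 99.2 CPM and the other EPR cKO libraries at 29.0 to 46.6 CPM. Hey1 in EPR cKO 1 was at 2.92 CPM and the others at 0.405 to 1.31 CPM. EPR cKO 1 also had the lowest composition score (−0.09), and the part of composition in these values was not tested beyond the relations given above.

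Dll4 in EPR fl/fl 4 was at 16.0 CPM, against 8.60 to 10.9 CPM in the other controls. The log2 ratio of Dll1 to Dll4 was 0.83 in EPR fl/fl 6, against −0.29 to 0 in the other controls. Neurog3 in EPR fl/fl 2 was at 0.780 CPM, against 0.358 to 0.484 CPM in the other controls.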

How the results depend on the processing

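None of the 10 Notch genes was called under other scalings, other filters, the DESeq2 Wald test, limma-voom or the composition covariate. limma-voom with quality weights called 3 of them and 10 of the other 45 tested pathway genes (with 20.5% of all tested genes). The DESeq2 Wald test called 3 of the latter (with 5.74%). Without EPR cKO 1 and EPR cKO 5 together, 2 Notch genes and 7 other pathway genes were called (with 14.1% of all tested genes). Neurog3 was among the pathway genes called with quality weights and by the DESeq2 Wald test. Aph1c was among those called with quality weights and without both EPR cKO libraries. Each of these met the minimum for testing through the genotype where it was higher. Leaving out each library in turn gave 0 to 3 Notch genes and 1 to 12 other pathway genes, with the highest counts in both cases without EPR cKO 1, while the share of all tested genes called ran from 1.11% to 21.8%. Notch2 was at −0.51 (adjusted p = 0.0310), Jag1 at 0.47 (0.0142) and Hes1 at 0.49 (0.0337) with quality weights, and without EPR cKO 1 and EPR cKO 5 Notch2 was at −0.54 (0.0210) and Jag1 at 0.47 (0.0237).

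Notch1 turned sign, to 0.040 with quality weights, 0.083 with the composition covariate and 0.035 without EPR cKO 1 and EPR cKO 5, and ran from −0.10 to 0.04 over the fits without 1 library (0.0097, 0.0073 and 0.0098 without EPR fl/fl 3, 4 and 6, and 0.0016 and 0.043 without EPR cKO 4 and 5). With the composition covariate Notch2 (0.19), Notch3 (0.21), Rbpj (0.0033) and Hey1 (0.31) turned sign. The difference of the ratio of Dll1 to Dll4 ran from −0.0011 to 0.22 without 1 library, and turned sign without EPR cKO 6. The ratio of Hes1 to Atoh1 stayed past the threshold with each library left out. Its genotypes did not overlap, so each of these p values was the smallest possible and tells nothing further about Hes1. The causes were not tested, other than that fewer libraries enter the fits that leave some out.

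The correlations of deviations of same-numbered libraries ran from −0.24 to 0.34. Libraries of different numbers were not compared, so these values cannot decide whether the numbers paired the libraries. With the replicate number as a block, 0 Notch genes and 1 other pathway gene were called, with 1.54% of all tested genes. The exact permutation p of the ratio of Hes1 to Atoh1, by sign flips within the blocks, was then 0.0312, the smallest that such flips allow. Low counts limit Hey1 (13 to 53 counts per library) and Neurog3, which passed the filter in 8 of 12 fits without 1 library.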
